A study of Mus musculus with 10 samples.

Results

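The NF-κB subunits and inhibitors were 10 genes chosen by symbol in the deposited count table, out of 18603 genes. They are the subunit genes Nfkb1, Nfkb2, Rel, Rela and Relb, the inhibitor genes Nfkbia, Nfkbie and Tnfaip3, and Nfkbiz and Bcl3, which encode nuclear relatives of the inhibitors. Their transcripts were read in whole tumours that RENCA cells, a mouse kidney cancer line, had formed under the skin of female Balb/c mice; the age of the mice is not given in the labels. The 5 SLR14 tumours were injected 3 times, 48 h apart, with lipid nanoparticles in 50 µL of PBS. Their cargo was SLR14, a short hairpin RNA carrying a 5′ triphosphate, the feature that the viral RNA sensor RIG-I recognizes. The 5 PBS tumours received PBS alone on the same schedule, so effects of the RNA and of its lipid carrier cannot be told apart. Mice were randomized at tumour volumes of 100 to 150 mm3, and tumours were taken 24 h after the last injection.

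NF-κB is a family of transcription factors that work in pairs. In resting cells the pairs are held in the cytoplasm by IκB proteins. In the classical route a receptor or RIG-I signal leads the IKK kinase to mark the IκB protein for destruction, and pairs such as RelA with the product of Nfkb1 enter the nucleus. In the alternative route the kinase NIK, encoded by Map3k14, leads to cutting of the Nfkb2 product, which then acts with RelB. Several inhibitor and subunit genes are themselves NF-κB targets, so that their transcripts can follow the activity they restrain. The activity itself rests on proteins and their location, which RNA sequencing does not measure.

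The promoters below are shown because this feedback is known to act at the promoters of genes such as Nfkbia and Tnfaip3. Of the 10 genes, 7 had an entry among the RefSeq promoter windows (build GRCm38.p6), which run from 250 bases before to 50 after a transcription start and are 300 bases long. These 7 genes had 10 windows. The κB consensus motif, 10 letters long and searched on both strands with overlapping matches counted, was found in 8 of the 10 windows and for 6 of the 7 genes. Windows 2 and 3 of Nfkb2 overlap, and the match in window 3 is also counted in window 2. It was found in 8.46% of 32851 windows in the table. Rela had no match in its window, which says only that these letters are not in that stretch. An interferon-response element, searched on both strands as GAAA, any 2 bases and GAAA again, was found for 0 of the 7 genes and in 3.44% of all windows. Capitals mark the κB matches in Nfkbia (chr12:55492598-55492897, minus strand), the first of 2 Tnfaip3 windows (chr10:19015361-19015660, minus strand) and the first of 3 Nfkb2 windows (chr19:46304487-46304786, plus strand). In Rsad2 (chr12:26456403-26456702, minus strand), an interferon-stimulated gene given for contrast, capitals mark the interferon-response element.
Nfkbia: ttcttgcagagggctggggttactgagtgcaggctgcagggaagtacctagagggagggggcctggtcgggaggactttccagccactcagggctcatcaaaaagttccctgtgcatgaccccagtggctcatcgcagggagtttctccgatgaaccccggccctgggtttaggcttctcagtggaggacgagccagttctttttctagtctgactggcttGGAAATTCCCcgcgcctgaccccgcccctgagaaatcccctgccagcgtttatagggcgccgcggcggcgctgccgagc
Tnfaip3: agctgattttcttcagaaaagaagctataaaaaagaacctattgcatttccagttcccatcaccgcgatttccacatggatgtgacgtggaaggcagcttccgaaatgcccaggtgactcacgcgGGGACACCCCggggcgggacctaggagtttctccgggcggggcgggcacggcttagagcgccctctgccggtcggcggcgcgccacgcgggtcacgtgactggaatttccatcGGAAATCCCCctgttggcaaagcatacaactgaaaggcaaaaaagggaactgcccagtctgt
Nfkb2: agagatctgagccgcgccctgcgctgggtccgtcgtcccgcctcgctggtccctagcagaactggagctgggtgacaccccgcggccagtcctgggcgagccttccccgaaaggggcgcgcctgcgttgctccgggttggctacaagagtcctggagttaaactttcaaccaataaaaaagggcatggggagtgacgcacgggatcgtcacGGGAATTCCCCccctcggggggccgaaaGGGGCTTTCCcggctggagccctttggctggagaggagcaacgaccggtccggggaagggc
Rsad2: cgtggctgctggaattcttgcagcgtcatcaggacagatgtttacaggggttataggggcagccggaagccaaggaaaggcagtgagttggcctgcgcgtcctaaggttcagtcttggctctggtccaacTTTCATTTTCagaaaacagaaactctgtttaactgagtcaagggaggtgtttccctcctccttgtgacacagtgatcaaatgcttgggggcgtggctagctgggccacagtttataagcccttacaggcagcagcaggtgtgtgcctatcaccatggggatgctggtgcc

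Other κB matches included GGGAAATCCC at 92 bases before the start of Rel, GGGGGATTCC at 106 bases before that of Nfkbie and GGGAAGTCCC just after that of Bcl3. The Nfkbia match, GGAAATTCCC, began 29 bases before the start. Nfkb2 had overlapping matches from 39 bases before its first start and GGGGCTTTCC at 11 bases before it. A match is a description of the letters and not evidence of binding in these tumours.

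Total counts per tumour ranged from 17931895 to 39842608, and all 10 genes passed the low-count filter. The quasi-likelihood test of edgeR covered 15883 genes and called 153 at an adjusted p of 0.05 (Benjamini-Hochberg), or 0.963%. PBS 5 stood apart from the other PBS tumours. Its counts differed from theirs by a chi-square per degree of freedom of 90.0 to 128, against 13.1 to 36.9 among the other 4. Its summed erythroid markers reached 160 CPM (the usual depth-scaled count unit, here with TMM factors), against 40.2 to 55.9 CPM in the other PBS tumours. Of the 8 renal epithelial markers checked against the RENCA label, Krt8 lay at 1389 to 1759 CPM in SLR14 tumours and 1180 to 1655 CPM in PBS tumours. Pax8 lay at 97.2 to 113 CPM in SLR14 tumours and 64.2 to 106 CPM in PBS tumours. Lhx1 stayed under 1 CPM in every tumour. Epcam fell, at 0.178 to 1.36 CPM in SLR14 tumours and 2.10 to 6.11 CPM in PBS tumours (edgeR adjusted p = 0.0324). Cdh16 lay at 187 to 294 CPM in SLR14 tumours and 315 to 409 CPM in PBS tumours, without overlap but not called (edgeR adjusted p = 0.0788). In SLR14 tumours the mean of Cdh1 was lower and those of Pax2 and Krt18 were higher, none of them called. Krt8 and Krt18 make up most of the renal sum, so it says little about the other markers. Summed leukocyte markers lay at 298 to 359 CPM in SLR14 tumours and 250 to 311 CPM in PBS tumours (exact permutation p = 0.0159, adjusted 0.0952 over 12 marker lists). Its 3 genes did not go the same way. Coro1a averaged 114 CPM in SLR14 tumours and 83.6 CPM in PBS tumours, and Laptm5 139 and 117 CPM. Ptprc averaged 76.4 CPM in SLR14 tumours and 79.4 CPM in PBS tumours. None of them passed in edgeR (adjusted p = 0.318, 0.587 and 0.826). The macrophage, B cell, fibroblast, erythroid and renal sums had an adjusted exact permutation p of 0.583, the natural killer sum 0.677, and the T cell, endothelial and skeletal muscle sums 0.849. Within the T cell list Cd4, the most abundant, averaged 6.41 CPM in SLR14 tumours and 9.56 CPM in PBS tumours, while the means of the other 5 markers were higher in SLR14 tumours. Cd3e averaged 1.15 CPM in SLR14 tumours and 0.183 CPM in PBS tumours without overlap (edgeR adjusted p = 0.0791), and Cd8a 1.10 CPM in SLR14 tumours and 0.240 CPM in PBS tumours (edgeR adjusted p = 0.111).

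None of the 10 genes passed the test between SLR14 and PBS tumours in edgeR, and 0 had an unadjusted p under 0.05. Over all tested genes 10.8% had such an unadjusted p in edgeR. DESeq2 and limma voom likewise gave 0 on both counts. Over all tested genes edgeR called 0.963%, DESeq2 2.19% and limma voom 0.913%, so a count of 0 among 10 is near the background and is no result about these genes. Each interval bounds the change in a gene's mean RNA level in whole tumours 24 h after the last injection. Changes at other times or within a single cell type were not measured. The 95% intervals of all 10 fold changes lay inside 2-fold in either direction, and 9 of the 10 lay inside 1.5-fold. For each of the 10 genes the ranges of the groups overlapped, while 3.24% of all tested genes had groups that did not. Fold changes were positive for 8 and negative for 2 of the genes, with a median log2 fold change of 0.10, against -0.01 over all tested genes. This split rested on PBS 5: without it 5 of the 10 were positive and the median was -0.02.

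**Figure D1:**
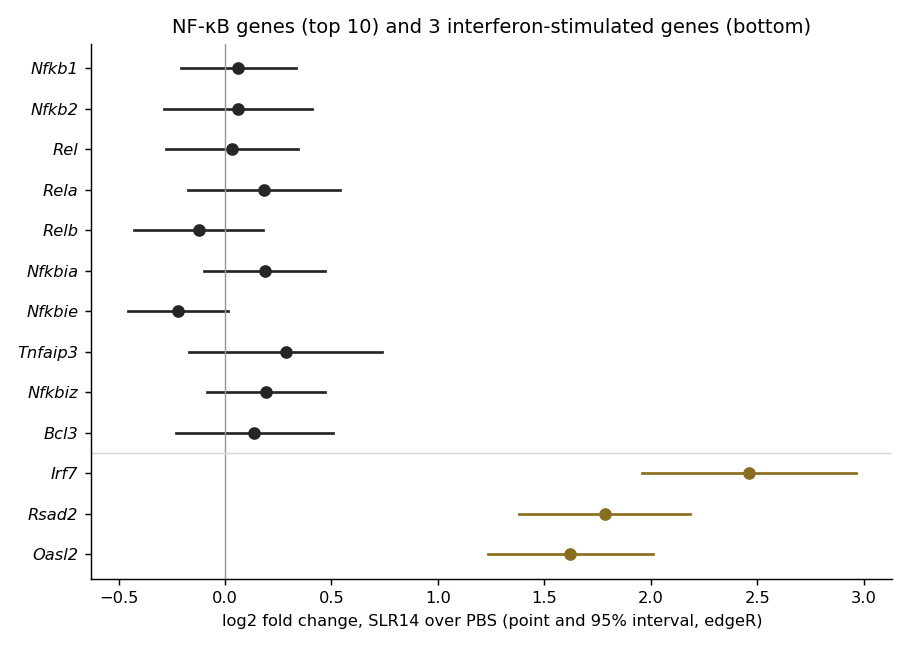
Log2 fold changes of SLR14 over PBS tumours with 95% intervals from edgeR for the 10 NF-κB genes and for Irf7, Rsad2 and Oasl2. The intervals of all 10 NF-κB genes include 0, and those of the 3 interferon-stimulated genes begin at 1.23 or higher.

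Interferon-stimulated genes rose in the same tumours, all 3 named here passing in each of the 20 alternatives. Irf7, which drives further type I interferon production, was at 280, 143, 297, 156 and 142 CPM in SLR14 tumours 1 to 5, against 27.4, 43.1, 33.4, 40.9 and 40.0 CPM in PBS tumours 1 to 5. Its log2 fold change was 2.46 with an interval of 1.96 to 2.96. Rsad2, the antiviral protein viperin, had an interval of 1.38 to 2.18 and Oasl2, an oligoadenylate synthetase-like protein, one of 1.23 to 2.01. The highest upper bound among the NF-κB genes was 0.74, for Tnfaip3, and lay under each of these lower bounds. Rigi, the gene of the sensor itself, rose (log2 fold change 0.83, SE 0.16, edgeR adjusted p = 0.0241). It lost the call in 9 of 20 alternatives, namely on the deposited normalized values, with the replicate block, and without PBS 1, 2 or 3 or SLR14 1, 3, 4 or 5, with adjusted p up to 0.0827. Mavs, which links RIG-I to both the interferon and the NF-κB branch, averaged 79.6 ± 5.16 CPM in SLR14 tumours and 74.7 ± 15.2 CPM in PBS tumours (SD, n = 5 each; edgeR adjusted p = 0.794).

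Levels were compared between genes per kilobase of exon. The length was that of all annotated exons of a gene merged (GENCODE M21), not that of a transcript. It was 12061 bases for Nfkb1 and 3072 for Rela, and the order below depends on it. In CPM alone Nfkb1 was the highest, averaging 150 CPM in SLR14 tumours and 144 CPM in PBS tumours, against 119 and 104 CPM for Rela. Per kilobase, over all 10 tumours, the highest level was that of Rela, at 36.3 ± 7.01 CPM per kilobase (SD, n = 10). Its product is the activating partner of the classical pair. Nfkbia, the classical inhibitor, followed at 27.2 ± 4.61 CPM per kilobase and lay below Rela in 9 of 10 tumours. Next came Nfkb2 at 17.0 ± 3.01, Bcl3 at 13.4 ± 2.78 and Nfkb1 at 12.2 ± 1.54 CPM per kilobase. Bcl3 exceeded Nfkb1 in 7 of 10 tumours, so these neighbours were not separated. Relb at 9.14 ± 1.52, Nfkbie at 8.38 ± 1.12 and Nfkbiz at 6.97 ± 1.08 CPM per kilobase formed a group in which each exceeded the next in 7 of 10 tumours. The lowest levels were those of Tnfaip3 at 4.57 ± 1.24 and of Rel at 3.80 ± 0.597 CPM per kilobase, with Tnfaip3 the higher in 8 of 10 tumours.

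**Figure D2:**
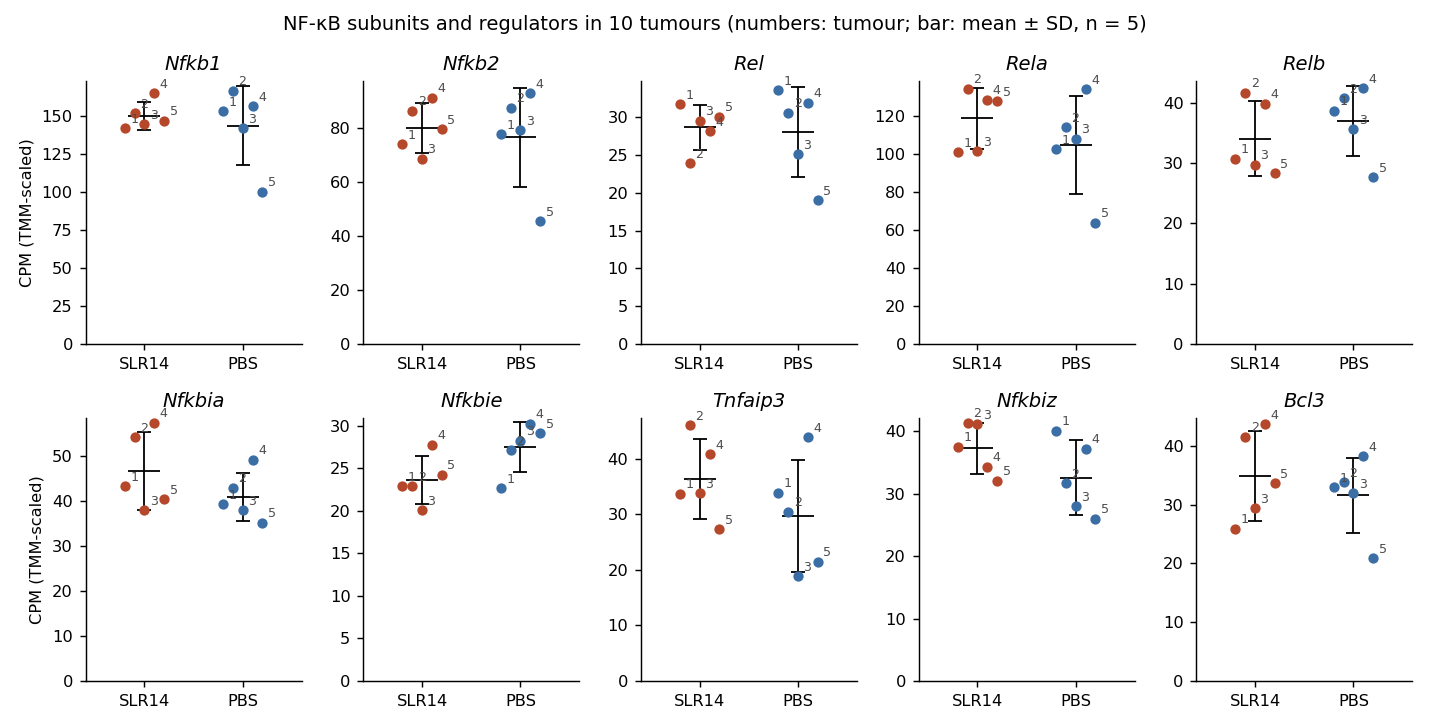
CPM of each NF-κB gene in the 5 SLR14 tumours (left in each panel) and the 5 PBS tumours (right), with tumour numbers and mean ± SD. The groups overlap in all 10 panels, and PBS 5 is the lowest point in 8 of them.

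Among the subunits, Rela had 101, 134, 101, 128 and 128 CPM in SLR14 tumours 1 to 5, against 102, 114, 108, 134 and 63.7 CPM in PBS tumours 1 to 5. The groups overlapped, and only SLR14 2 lay above the highest PBS tumour. The log2 fold change was 0.18 (SE 0.17, interval -0.18 to 0.54, edgeR adjusted p = 0.692). Without PBS 5 it was 0.04.

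Nfkb1 encodes the precursor of p50, the usual partner of RelA. It had 142, 152, 144, 165 and 147 CPM in SLR14 tumours, against 153, 166, 142, 156 and 100 CPM in PBS tumours. Every SLR14 value fell within the PBS range, and PBS 5 alone stood low. Its interval was the narrowest of the 5 subunits, 0.867-fold to 1.26-fold (log2 fold change 0.06, edgeR adjusted p = 0.857). Without PBS 5 the log2 fold change was -0.05.

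Nfkb2 encodes the precursor of p52, the subunit of the alternative route. It had 73.9, 86.3, 68.5, 91.2 and 79.5 CPM in SLR14 tumours, against 77.6, 87.4, 79.0, 92.7 and 45.5 CPM in PBS tumours. Again the SLR14 tumours lay within the PBS range, with PBS 5 lowest (log2 fold change 0.06, SE 0.16, edgeR adjusted p = 0.898). Without PBS 5 the log2 fold change was -0.08.

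Rel encodes c-Rel, a subunit best known in lymphocytes and myeloid cells. It had 31.7, 23.9, 29.5, 28.1 and 30.1 CPM in SLR14 tumours, against 33.6, 30.6, 25.1, 31.9 and 19.0 CPM in PBS tumours. The groups overlapped throughout, and SLR14 2, high for most other genes of the family, was the lowest SLR14 tumour here. The log2 fold change was 0.03 (SE 0.14, edgeR adjusted p = 0.942), and -0.08 without PBS 5.

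Relb encodes the subunit that acts with p52 and that dendritic cells need. It had 30.7, 41.7, 29.7, 39.8 and 28.3 CPM in SLR14 tumours, against 38.6, 40.7, 35.6, 42.4 and 27.6 CPM in PBS tumours. SLR14 1, 3 and 5 lay below 4 of the 5 PBS tumours, while SLR14 2 and 4 lay among them. The log2 fold change was -0.12 (SE 0.14, interval -0.43 to 0.18, edgeR adjusted p = 0.749), and -0.22 without PBS 5 (edgeR adjusted p = 0.497). Without PBS 5 and SLR14 2 it was -0.30 (edgeR unadjusted p = 0.0146, adjusted 0.266). The lowest adjusted p over the 20 alternatives was 0.237, in limma voom with quality weights.

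Among the inhibitors, Nfkbia encodes IκBα, which is made anew within the classical route and ends the signal. It had 43.2, 54.1, 37.9, 57.3 and 40.4 CPM in SLR14 tumours, against 39.2, 42.9, 37.9, 49.1 and 35.2 CPM in PBS tumours. SLR14 2 and 4 lay above the highest PBS tumour and the other 3 within the PBS range. The log2 fold change was 0.19 (SE 0.13, interval -0.10 to 0.47, edgeR adjusted p = 0.621), and 0.07 without PBS 5 and SLR14 2.

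Nfkbie encodes IκBε, a slower inhibitor of the same kind. It had 22.9, 22.9, 20.1, 27.8 and 24.2 CPM in SLR14 tumours, against 22.6, 27.1, 28.2, 30.2 and 29.1 CPM in PBS tumours. This gene had the smallest unadjusted p of the 10 (0.0627; log2 fold change -0.22, SE 0.11, edgeR adjusted p = 0.487). Its levels overlapped through PBS 1 and SLR14 4, and PBS 5 was not low here. Over the 20 alternatives the log2 fold change ran between -0.28 and -0.17, and the adjusted p did not go under 0.360.

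Tnfaip3 encodes A20, a ubiquitin-editing enzyme that shuts down signalling upstream of IKK. It had 33.8, 46.1, 33.8, 40.8 and 27.4 CPM in SLR14 tumours, against 33.9, 30.5, 18.9, 43.9 and 21.5 CPM in PBS tumours. It had the widest spread of the family, with PBS 3 and PBS 5 low and PBS 4 among the highest. The log2 fold change was 0.28 (SE 0.21, edgeR adjusted p = 0.632), and its interval, 0.890-fold to 1.67-fold, was the one that reached beyond 1.5-fold. The log2 fold change was 0.18 without PBS 5 and ran between 0.08 and 0.47 over the 20 alternatives.

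Nfkbiz encodes IκBζ, an induced nuclear protein that switches on secondary targets such as Lcn2. It had 37.5, 41.4, 41.1, 34.3 and 32.1 CPM in SLR14 tumours, against 40.1, 31.7, 28.0, 37.3 and 26.0 CPM in PBS tumours. SLR14 2 and 3 lay above the highest PBS tumour, PBS 1, by little (log2 fold change 0.19, SE 0.13, edgeR adjusted p = 0.604). Without PBS 5 the log2 fold change was 0.12, and 0.08 without PBS 5 and SLR14 2.

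Bcl3 encodes a nuclear protein that binds p50 and p52 pairs. It had 25.9, 41.5, 29.4, 43.7 and 33.7 CPM in SLR14 tumours, against 33.0, 33.9, 32.0, 38.2 and 20.9 CPM in PBS tumours. SLR14 tumours lay on both sides of the 4 closely spaced PBS tumours 1 to 4 (log2 fold change 0.14, SE 0.17, edgeR adjusted p = 0.768). Without PBS 5 the log2 fold change was 0.01, and -0.06 without PBS 5 and SLR14 2.

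The standing of single tumours was shared by much of the family. PBS 5 was the lowest of all 10 tumours for 8 of the 10 genes, the exceptions being Nfkbie and Tnfaip3. PBS 4 was among the 3 highest of all 10 tumours for 9 genes. Within the SLR14 group, SLR14 2 and SLR14 4 both exceeded SLR14 1, 3 and 5 for 7 of the 10 genes, namely Nfkb1, Nfkb2, Rela, Relb, Nfkbia, Tnfaip3 and Bcl3. These 2 tumours also had the lowest total counts of the series, 17931895 and 20048831, and the highest summed neutrophil markers, 46.5 and 33.1 CPM, against 16.1 to 25.7 CPM in the other SLR14 tumours. The part of depth or of neutrophils in these levels was not tested. Leaving out PBS 5 narrowed the PBS spread of Nfkb1 to 154 ± 10.2 CPM (SD, n = 4), against 144 ± 25.8 CPM with it (SD, n = 5). Nfkb1, Nfkb2 and Rel then had negative fold changes, none of them called. With PBS 5 and SLR14 2 both left out, 3 of the 10 genes had positive fold changes, the median was -0.04 and 0 passed in edgeR. Limma voom with quality weights gave 4 positive and a median of -0.06.

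**Figure D3:**
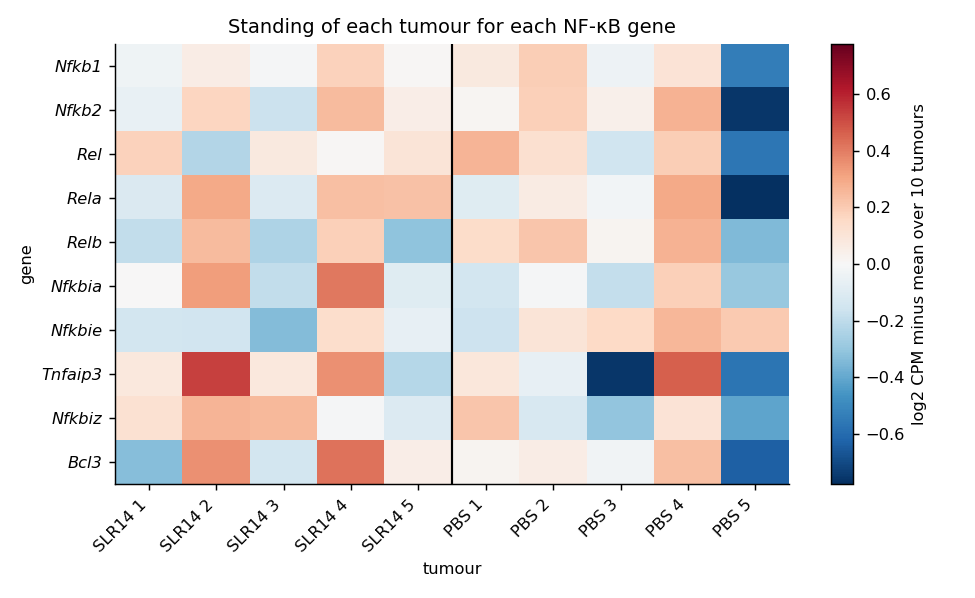
Log2 CPM of each NF-κB gene (rows) in each tumour (columns, SLR14 left of PBS) minus the gene's mean over 10 tumours. The PBS 5 column is low for every gene but Nfkbie, and SLR14 2 and SLR14 4 are above SLR14 1, 3 and 5 for 7 genes.

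The balance between genes was compared within each tumour, where the library size cancels. Of 6 ratios chosen from known partnerships, 1 differed between the groups by a two-sided exact permutation test. The log2 count ratio of Relb to Rela was -1.71, -1.69, -1.77, -1.69 and -2.18 in SLR14 tumours 1 to 5, against -1.41, -1.49, -1.60, -1.66 and -1.20 in PBS tumours 1 to 5. All 5 SLR14 tumours lay below all 5 PBS tumours, by as little as 0.03 between SLR14 4 and PBS 4. The mean difference was -0.34 (exact permutation p = 0.00794, the smallest that 5 against 5 tumours can give, and 0.0476 adjusted over the 6 ratios).

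Over the other tested genes, a comparison added after this result was seen, the log2 ratio to Rela had a median difference of -0.21. All 5 SLR14 tumours lay below all 5 PBS tumours for 1.24% of them and above for 0.346%, 1.59% together. Relb alone (-0.12) and Rela alone (0.18) did not pass. The difference was -0.27 without PBS 5, with the call kept, and -0.24 without SLR14 5 (exact permutation p = 0.0238, adjusted 0.143), and leaving out any other SLR14 tumour gave an adjusted exact permutation p of 0.0952.

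RelB is needed by dendritic cells, so their markers are given beside this ratio. The 6 markers summed to 29.6, 14.9, 18.8, 20.7 and 23.9 CPM in SLR14 tumours, against 37.8, 41.9, 28.4, 64.5 and 24.9 CPM in PBS tumours (exact permutation p = 0.0317, adjusted 0.127 over 12 marker lists). Most of this sum was Itgax, which averaged 16.8 CPM in SLR14 tumours and 27.7 CPM in PBS tumours. Neither Itgax (edgeR adjusted p = 0.370) nor Ccr7 (edgeR adjusted p = 0.324) passed. Of the 6, Zbtb46 (edgeR adjusted p = 0.0398) and Cd209a (edgeR adjusted p = 0.000129) fell. Flt3 and Xcr1 stayed under 1.5 CPM in every tumour, and none of the 6 was at 0 throughout. Their part in the Relb ratio was not tested, and in whole tumours fewer cells of a type and less RNA per cell cannot be told apart.

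The other 5 ratios overlapped between the groups. Nfkbia to Rela, the inhibitor against its main target, had a mean log2 ratio of -1.36 ± 0.196 in SLR14 tumours and -1.32 ± 0.263 in PBS tumours (SD, n = 5 each; exact permutation p = 0.841). Tnfaip3 to Rela differed by 0.12 between the means, Rel to Rela by -0.16, Nfkb2 to Nfkb1 by 0.01 and Bcl3 to Nfkb1 by 0.06. The exact permutation p of these 5 ratios was 0.865 after adjustment over the 6. Single tumours set the sign of 4 of them: leaving out 1 tumour gave 0.08 for Nfkbia to Rela (PBS 5), -0.05 for Tnfaip3 to Rela (PBS 3), -0.04 for Nfkb2 to Nfkb1 (PBS 5) and -0.01 for Bcl3 to Nfkb1 (SLR14 2). Rel to Rela kept its sign, at -0.25 to -0.05.

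**Figure D4:**
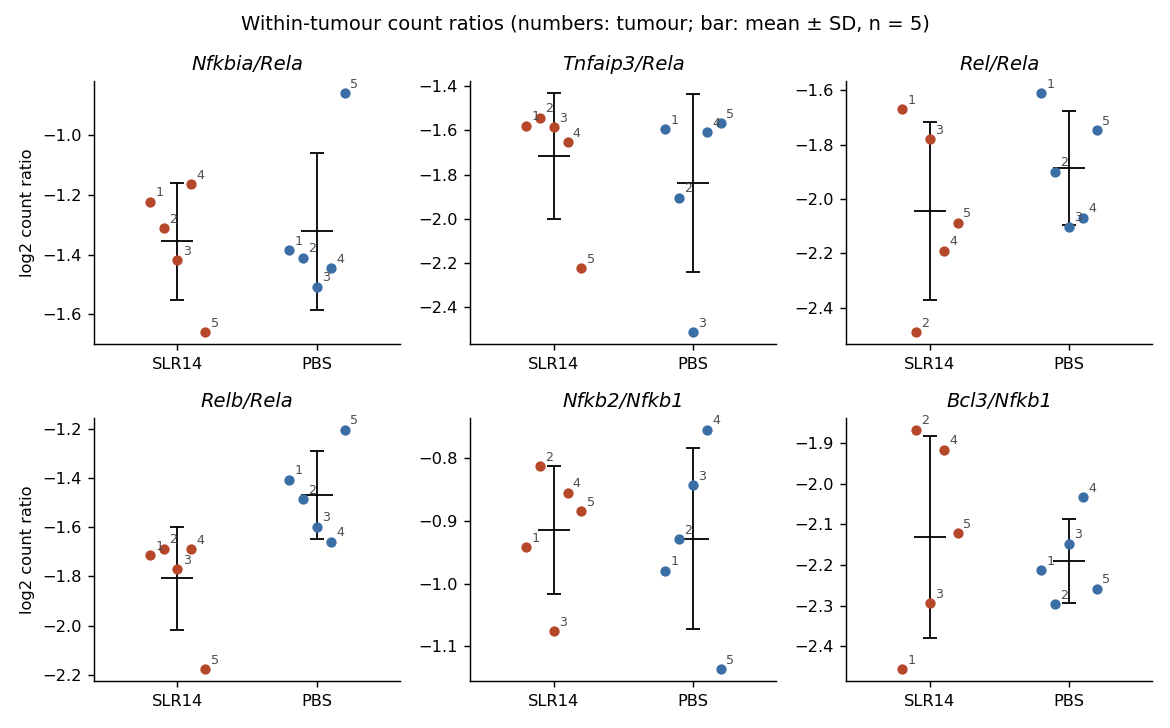
Log2 count ratios of 6 gene pairs in the 5 SLR14 tumours (left in each panel) and the 5 PBS tumours (right), with tumour numbers and mean ± SD. Only Relb to Rela separates the groups, and SLR14 5 stands apart from the other SLR14 tumours there.

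Among genes that feed signals into NF-κB, 1 receptor or ligand gene and no kinase or adaptor gene passed. Of 18 receptors and ligands listed, 15 were in the table and tested, 1 rose, 0 fell and 14 did not pass, against 0.674% of all tested genes called higher and 0.29% called lower. Their median log2 fold change was 0.07. The gene that rose was Tnfsf13b, which encodes BAFF, a B cell survival factor that acts through the alternative route. It had 2.75, 1.01, 1.70, 1.43 and 2.48 CPM in SLR14 tumours, against 0.348, 0.793, 0.679, 0.688 and 0.310 CPM in PBS tumours. The groups did not overlap (log2 fold change 1.73, SE 0.34, edgeR adjusted p = 0.0295). The call was lost on the deposited normalized values, with the replicate block, and without PBS 1, PBS 3, SLR14 1, SLR14 3, SLR14 4 or SLR14 5 (adjusted p up to 0.181). Its receptor gene Tnfrsf13c averaged 4.05 ± 0.940 CPM in SLR14 tumours and 4.72 ± 1.16 CPM in PBS tumours (SD, n = 5 each; edgeR adjusted p = 0.719). Tnf, the classical activator, averaged 4.82 ± 1.02 CPM in SLR14 tumours and 4.33 ± 0.907 CPM in PBS tumours (edgeR adjusted p = 0.763). Il1b averaged 19.9 ± 6.50 CPM in SLR14 tumours and 20.3 ± 7.07 CPM in PBS tumours (edgeR adjusted p = 0.962). Tnfrsf13c, Tnf and Il1b fall outside the naming rule and were chosen after their values were seen.

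Of 25 kinases and adaptors tested, 0 passed in edgeR, DESeq2 and limma voom alike, and 0 had an unadjusted p under 0.05, which 10.8% of all tested genes had, and the median log2 fold change was 0.02. The smallest p values in this list were those of Traf3, Bcl10 and Ikbke. Tank, an adaptor given under other observations, was not in the list. Traf3, an adaptor that restrains the alternative route and carries RIG-I signals, had 61.0, 60.6, 63.4, 64.4 and 66.6 CPM in SLR14 tumours, against 58.2, 60.7, 50.9, 57.4 and 22.7 CPM in PBS tumours. PBS 5 stood far below every other tumour (log2 fold change 0.34, edgeR adjusted p = 0.567, and 0.15 without PBS 5). Bcl10, an adaptor of antigen receptors, had a log2 fold change of -0.17 (edgeR adjusted p = 0.575). Ikbke, an IKK-related kinase of the interferon branch, had one of 0.16 (edgeR adjusted p = 0.592). The IKK genes Chuk, Ikbkb and Ikbkg, named after their values were seen, had log2 fold changes of -0.02, 0.01 and 0.02.

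Of 18 other regulators tested, none passed by edgeR, by DESeq2 or by limma voom, where edgeR called 0.963% of all tested genes. In edgeR 3 reached an unadjusted p under 0.05, where 10.8% of all tested genes did. Both counts are near the background and are no result about this list. The 3 genes were higher in SLR14 tumours. Zc3h12a encodes Regnase-1, a nuclease that degrades inflammatory messages. It averaged 14.5 ± 1.97 CPM in SLR14 tumours and 10.8 ± 1.76 CPM in PBS tumours (SD, n = 5 each; log2 fold change 0.42, SE 0.14, edgeR adjusted p = 0.264). Rnf31, the catalytic subunit of the linear ubiquitin ligase, averaged 31.3 ± 1.38 CPM in SLR14 tumours and 25.2 ± 5.00 CPM in PBS tumours (edgeR adjusted p = 0.391). Nfkbid, a further nuclear IκB protein, averaged 2.38 ± 0.396 CPM in SLR14 tumours and 1.78 ± 0.228 CPM in PBS tumours (edgeR adjusted p = 0.436).

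Among known NF-κB target genes 1 passed. Of 34 listed, 30 were in the table and 29 were tested, of which 1 rose, 0 fell and 28 did not pass, where 0.674% of all tested genes were called higher. Their median log2 fold change was 0.14, and 6 had an unadjusted p under 0.05, 5 higher and 1 lower, where 10.8% of all tested genes did. Lcn2, an iron-trapping protein that IκBζ controls, rose. It had 80.3, 122, 92.2, 109 and 59.2 CPM in SLR14 tumours, against 37.5, 39.4, 34.6, 36.2 and 32.3 CPM in PBS tumours, with no overlap. It passed in all 20 alternatives (log2 fold change 1.36, SE 0.16, edgeR adjusted p = 0.00106). Lcn2 is also made by neutrophils, whose 5 markers in the table summed to 25.7, 46.5, 17.5, 33.1 and 16.1 CPM in SLR14 tumours, against 11.1, 10.9, 15.7, 13.7 and 10.6 CPM in PBS tumours (exact permutation p = 0.00794, adjusted 0.0952). Of these markers S100a8 and S100a9 rose in edgeR (adjusted p = 0.0127 and 0.0295). Csf3r, at a mean of 12.3 CPM in SLR14 tumours and 9.18 CPM in PBS tumours, did not pass (edgeR adjusted p = 0.562). Neither did Cxcr2 (edgeR adjusted p = 0.111), and Retnlg was too low to be tested. The part of neutrophils in the Lcn2 level was not tested.

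A further 4 targets did not pass and were chosen after their values were seen. Ccl2, a monocyte chemokine, averaged 66.4 ± 8.40 CPM in SLR14 tumours and 35.3 ± 12.4 CPM in PBS tumours without overlap (SD, n = 5 each; edgeR adjusted p = 0.0507). Cfb, complement factor B, averaged 2.65 ± 0.870 CPM in SLR14 tumours and 0.784 ± 0.578 CPM in PBS tumours (edgeR adjusted p = 0.0749). Cd83, a surface protein of mature dendritic cells, averaged 4.57 ± 1.24 CPM in SLR14 tumours and 8.42 ± 2.11 CPM in PBS tumours (edgeR adjusted p = 0.0942). Icam1, an adhesion molecule, averaged 29.9 ± 4.20 CPM in SLR14 tumours and 31.4 ± 4.50 CPM in PBS tumours (edgeR adjusted p = 0.825).

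**Figure D5:**
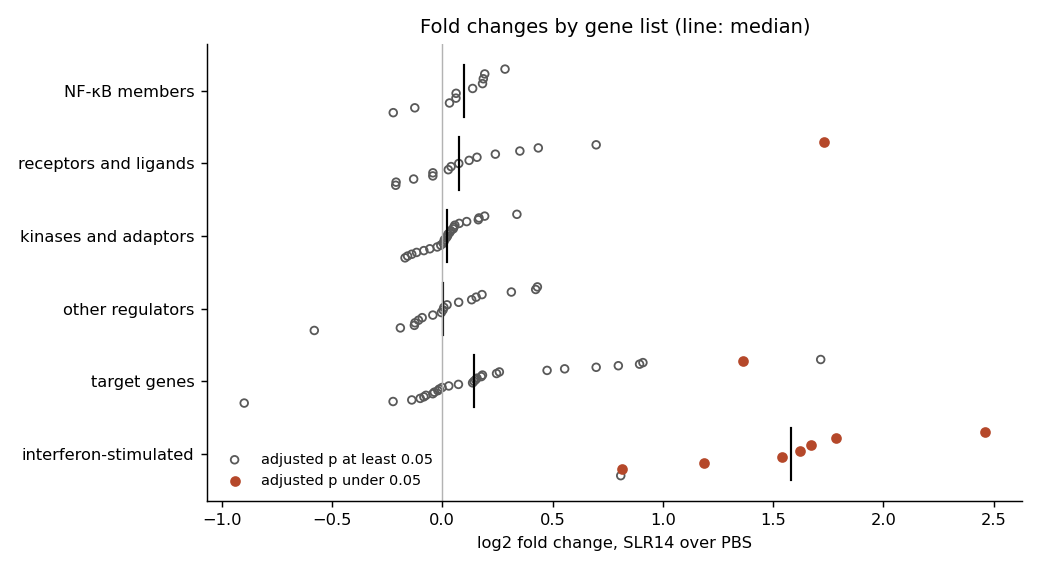
Log2 fold changes of SLR14 over PBS tumours for the 10 NF-κB genes, 4 lists of their pathway and 8 interferon-stimulated genes. Filled points passed an adjusted p of 0.05 and lines are medians, which lie between 0.00 and 0.14 for the NF-κB lists and at 1.58 for the interferon-stimulated list.

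Calls were also counted by promoter motif over all genes. Of 10882 tested genes with a promoter entry, 81 rose, 0.744%, and 36 fell, 0.331%. Of the 1354 with a κB consensus match, 15 rose, 1.11%, and 5 fell, 0.369%. Of the 1294 among them without the interferon-response element, 10 rose, 0.773%. Of the 417 with the interferon-response element, 27 rose, 6.47%, and 4 fell, 0.959%. These shares are counts without a test. Neither motif covers all sites of its factors, and Irf7 and Oasl2 had no match in their windows.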

How the data were processed

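Polyadenylated RNA of 10 whole tumours was measured by RNA sequencing. Per the labels' protocols, RNA was depleted of ribosomal RNA and enriched with oligo(dT) beads before random-primed cDNA synthesis. The tools named are STAR, Trim Galore 0.6.7 and DESeq2 1.36.0, with build mm39, per the submitters' processing notes. Which counter, strand setting or gene annotation was used is not given in the sources used here. Reads of overlapping or antisense genes therefore cannot be told apart. The authors deposited raw counts per gene, and a normalized signal that equals the counts divided by 1 factor per sample.

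Groups came from the sample titles. Genes were filtered with filterByExpr (minimum count 10) and scaled by TMM, and SLR14 was tested against PBS with edgeR 4.0.16's quasi-likelihood test in R 4.3.3 over all 10 tumours, with Benjamini-Hochberg adjustment over 15883 genes at 0.05. Standard errors are the log2 fold change over the square root of F, and 95% intervals use the test's degrees of freedom. Ratios are log2 of counts plus 0.5. Ratios and marker sums were compared by two-sided exact permutation tests. The 20 alternatives were other scalings, filters and samples, a replicate block, limma 3.58.1, and DESeq2 1.42.0, which on simulated data made a larger share of false calls than edgeR and limma voom.

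The named genes are the 10 NF-κB genes, the called genes of each pathway list or else its 3 smallest p, and Irf7, Rsad2, Oasl2, Rigi and Mavs. Members and lists were chosen with earlier results of these data known. No tumour was counted as a duplicate: within groups, every pair of libraries had a chi-square of 7.40 to 128 per degree of freedom. The labels give 5 mice a group but do not tie samples to mice beyond this. Promoters and exon lengths come from GRCm38 annotation, not the submitters' build.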

Additional observations from a re-analysis of the deposited data

Results flagged for a closer look

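Of 82 groups of 5 tumours checked for a single value far from the rest, 7 had one. Chance gives about 1 group in 20 where groups are independent. These groups share tumours and genes, so the 7 cannot be read as an excess over that rate. Of the NF-κB ratios, the log2 ratio of Nfkbia to Rela stood apart in PBS 5 at -0.86. In SLR14 5 the log2 ratio of Tnfaip3 to Rela stood apart at -2.22 and that of Relb to Rela at -2.18. PBS 5 also had the isolated Traf3 level of 22.7 CPM and the isolated erythroid marker sum of 160 CPM. The erythroid marker sum of SLR14 4, 89.0 CPM, lay far above those of the other SLR14 tumours. The natural killer cell sum, read from Ncr1 alone, stood apart in PBS 2 at 0.508 CPM.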

How the results depend on the processing

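None of the 10 NF-κB genes passed in any of the 20 alternatives, nor did any gene of the kinase or other-regulator lists. Over all tested genes edgeR called 0.963% and DESeq2 2.19%, so counts of 0 in lists this small are near the background. Without PBS 1, 2 of the 10 genes had an unadjusted p under 0.05 in edgeR. In each other alternative 0 or 1 of them did. The sign of Nfkb1, Nfkb2, Rel, Rela and Bcl3 changed under 1 to 5 alternatives each, always uncalled, mostly those without PBS 5 or with quality weights.

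Over all genes 153 passed (107 higher, 46 lower) in edgeR. DESeq2 called 407 (251 higher, 156 lower), voom with quality weights 349 (205 higher, 144 lower) and limma on the deposited normalized values 100 (63 higher). Without PBS 5 and SLR14 2 together the lower genes numbered 74. Leaving out each tumour in turn gave 69 to 194 calls, 44 to 123 higher and 25 to 71 lower, the largest without PBS 5. The cause of these differences was not tested.

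The receptor and ligand list lost its 1 call (0 called) on the deposited normalized values, with the replicate block, and with a filter of 1 CPM in 5 samples, which removed Tnfsf13b; leaving out 1 tumour gave 0 to 1. Of the target genes, 2 rose with DESeq2 size factors, limma voom, no filter on low counts or both tumours left out, and 3 with DESeq2 or quality weights, and 1 fell with DESeq2. Leaving out 1 tumour gave 1 to 2 rising and 0 to 1 falling.

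The Relb to Rela difference was -0.30 without PBS 5 and SLR14 2 (exact permutation p = 0.0286, adjusted 0.171) and -0.34 with the replicate block (exact p = 0.0625, adjusted 0.375); these are the smallest p those designs allow. Leaving out 1 tumour gave -0.38 to -0.24. As a mean of log2(CPM + 1), the neutrophil markers differed by 0.92 and the dendritic markers by -0.68, each with an adjusted exact permutation p of 0.0476.

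Title numbers did not pair the tumours: the deviations of same-numbered tumours correlated at -0.20 to 0.11 over 5 pairs, and 1 of 10 tumours correlated best with its own number. With the number as a replicate block 78 genes passed, 51 higher and 27 lower. Tnfsf13b and Rigi lost their calls under the block. With 5 tumours a group, a gene that was not called may still have shifted within its interval, and the smallest detectable shift was not computed.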

Other observations

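Each NF-κB gene was set against 12068 other tested genes by the root mean square difference of group-centred, unit-SD log2(CPM + 1) values over 10 tumours, a measure that PBS 5 weighs on heavily. Nfkb2 and Rela were each other's nearest family member (0.257), Nfkb2 ranking 22 among all genes by nearness to Rela. Relb and Nfkbia (0.445) and Tnfaip3 and Nfkbiz (0.656) were nearest to each other, Bcl3 was nearest to Rela (0.413), and Nfkb1 to Nfkb2 (0.302). The nearest member to Rel was Nfkb1 (0.695) and to Nfkbie was Nfkbia (0.986). Nfkbie was the farthest member from every other one but Nfkbia, whose farthest was Rel. Of all genes, the nearest to Nfkb1 was Nacc2 (0.115), to Nfkb2 Src (0.148), to Rela Tmem104 (0.167) and to Bcl3 Ccnd3 (0.182).

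Tank, which encodes a TRAF-binding adaptor of the TBK1 kinase, had 40.7, 43.2, 38.7, 37.8 and 37.7 CPM in SLR14 tumours, against 48.8, 49.5, 45.4, 45.3 and 52.5 CPM in PBS tumours. The groups did not overlap, as for 3.24% of tested genes, but the gene did not pass (log2 fold change -0.29, SE 0.08, edgeR adjusted p = 0.157). It was chosen after its values were seen and was not in the list of kinases and adaptors.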
